A study of Mus musculus with 3 samples.

Results

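Rag1, Rag2 and Dntt are the lymphocyte genes that cut and diversify antigen receptor DNA. These 3 genes, of 21887 protein-coding genes on the assembled mouse chromosomes, were listed by name and placed by RefSeq gene positions. RAG1 and RAG2 form the recombinase: RAG1 carries the nuclease activity, and RAG2 is its essential partner and binds methylated histone H3 through a PHD finger. Dntt encodes terminal transferase (TdT), which adds bases without a template at the joints between receptor segments. In thymocytes all 3 are known to be active at the double-negative stage, when T cell receptor beta, gamma and delta genes are rearranged. Rag1 and Rag2 lie end to end and are known to be controlled by shared elements upstream of Rag2.

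Acetylation of histone H3 at lysine 27 (H3K27ac), which marks active promoters and enhancers, was mapped by chromatin immunoprecipitation and sequencing in thymocytes of wild-type C57BL/6J mice aged 5 to 7 weeks. The cells lacked CD4 and CD8 and were CD25+CD44-/+, per the labels, and were sorted straight from the thymus. Chromatin was first captured with an H3 antibody, joined to sequencing adapters and then captured with an H3K27ac antibody. The data are peak lists of 2 replicates, with 12377 and 9477 peaks. Fold and −log10 q, where given, are the enrichment and the adjusted evidence that the authors' peak caller gave each peak. The labels do not say whether the replicates came from separate mice, so their spread may be technical. An input sample is also labelled and was not analysed here. The files hold no read counts, so depth is unknown and no counting error can be given for a peak, and with 1 group no comparison between conditions exists.

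The peak lists were read against markers of the sorted cells. A gene-end peak here is a peak within 1 kb of either annotated end of a gene. Of 9 T cell precursor markers, 5 had a gene-end peak in replicate 1, 7 in replicate 2 and 4 in both (Cd3d, Cd3e, Cd3g and Cd27), where 25.1%, 22.2% and 16.8% of all protein-coding genes had one, and Lck had none in either. Cd3d, Cd3e and Cd3g are neighbours on chromosome 9, so they should not be counted as separate loci, and their peaks had folds of 1.05 to 1.23. Chromosome 9 had median folds of 1.44 and 1.25 in replicates 1 and 2, against 2.17 and 2.31 over all peaks. Its median −log10 q values were 9.76 and 8.63. None of 7 B cell, 6 myeloid, 5 erythroid or 5 stromal markers had a gene-end peak in either replicate, counts too small to be read against 16.8%. In each of these 4 lists, 2 markers had shared coverage within 25 kb, among them Cd79a with 1223 bp and Cebpe with 1067 bp. Of 5 markers of natural killer and innate cells, Nkg7 had a gene-end peak in both replicates, with 0 bp of shared coverage within 25 kb. In this list too 2 markers had shared coverage, Tyrobp with 2257 bp and Klrb1c with 1141 bp.

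The starts of the 3 genes are shown because the data separate them: the Dntt start lay beside peaks of both replicates and the Rag starts did not. Each sequence runs 5′ to 3′ on the gene's own strand, from 250 bases before the annotated start to 50 bases from it, and comes from RefSeq (build GRCm38.p6). Capitals in the Dntt sequence (plus strand, chr19:41029025-41029324) mark the 202 bases under a replicate 2 peak. Capitals in the Rag1 sequence (minus strand, chr2:101649483-101649782) and in the Rag2 sequence (plus strand, chr2:101624462-101624761) mark matches to the motifs given after the sequences.
Dntt: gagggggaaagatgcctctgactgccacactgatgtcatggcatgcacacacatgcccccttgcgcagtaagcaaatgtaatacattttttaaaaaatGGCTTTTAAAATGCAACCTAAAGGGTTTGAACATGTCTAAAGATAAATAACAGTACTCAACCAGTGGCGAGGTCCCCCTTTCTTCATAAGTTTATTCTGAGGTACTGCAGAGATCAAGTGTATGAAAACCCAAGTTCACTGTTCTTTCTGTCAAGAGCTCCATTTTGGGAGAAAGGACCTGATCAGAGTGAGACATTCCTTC
Rag1: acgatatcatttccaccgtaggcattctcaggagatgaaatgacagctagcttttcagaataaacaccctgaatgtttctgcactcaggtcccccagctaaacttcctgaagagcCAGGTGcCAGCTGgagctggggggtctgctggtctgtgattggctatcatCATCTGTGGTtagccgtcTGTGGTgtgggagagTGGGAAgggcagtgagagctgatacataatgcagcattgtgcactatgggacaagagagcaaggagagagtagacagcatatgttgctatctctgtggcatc
Rag2: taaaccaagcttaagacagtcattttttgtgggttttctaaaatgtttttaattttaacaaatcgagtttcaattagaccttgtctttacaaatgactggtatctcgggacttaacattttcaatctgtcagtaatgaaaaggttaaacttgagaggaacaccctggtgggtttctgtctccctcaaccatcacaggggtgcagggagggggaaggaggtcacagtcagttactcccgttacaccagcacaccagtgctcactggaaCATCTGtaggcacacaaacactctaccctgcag

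The 3 starts were alike in holding few CG dinucleotides, 2 at Dntt and 3 each at Rag1 and Rag2, against a median of 13.0 over 21263 promoters of the same length. GC content was 42.3% at Dntt, 50% at Rag1 and 43.0% at Rag2. Six-letter motifs were searched on both strands, and a match is a description of letters only. Positions give the first base of a match on the gene's strand, with the start at 0. The Rag1 start held CAGNTG, the E box of E proteins, 3 times, at positions -135, -128 and -85. It held TGTGGT, the Runx motif, 2 times, at -81 and -67, the first overlapping the third E box. It also held TGGGAA, the form of the Ikaros motif searched, at -52. TGGGAG, which differs in its last letter and was not searched, can be read in both the Dntt and the Rag1 sequence. A missing TGGGAA match at Dntt therefore does not show that the window lacks an Ikaros site. The Rag2 start held 1 E box match, at 17. The Dntt start held AGATAA, the Gata motif, at -112, among the bases under the replicate 2 peak. Of all promoters, 48.6% held CAGNTG, 15% TGTGGT, 24.5% TGGGAA and 9.65% AGATAA. Neither TATAAA, the TATA box (12.6% of promoters), nor CTTTGA, the Tcf and Lef motif (14.4%), was found in any of the 3 windows.

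Among the 3 genes, only Dntt had a gene-end peak. It had 1 in replicate 1 and 1 in replicate 2, while Rag1 and Rag2 had 0 in each. A count of 1 in 3 is too small to be read against the shares over all genes (25.1%, 22.2% and, for both replicates, 16.8%). The cells were measured in bulk, so fewer cells with the mark and less of the mark per cell cannot be told apart. The call was the same with the annotated start alone, a reading chosen after seeing the data, for which 18.1% of 17492 genes with a listed start were called in both replicates.

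At the recombinase locus no peak of either replicate was listed over the genes or around them. Rag2 (chromosome 2, 101624712 to 101632528, plus strand) and Rag1 (101638252 to 101649532, minus strand) face each other tail to tail with 5723 bp between them. The bodies of both genes had 0 bp covered in each replicate. The window from 100 kb below Rag2 to 100 kb above Rag1 (101524712 to 101749532, 225 kb) also had 0 bp in replicate 1 and 0 bp in replicate 2. It holds the upstream region of Rag2 in which the distal control elements of the pair are known to lie. Both replicates were alike in this, and the window was also empty when widened to 200 kb.

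The nearest peaks stood well outside that window and differed between replicates. In replicate 1 they lay 383 kb below the pair (101241245 to 101242202, fold 3.32, −log10 q 1.61) and 213 kb above it (101862308 to 101862587, fold 2.09, −log10 q 0.697). The latter lies inside Prr5l, which encodes a protein bound to the mTORC2 kinase complex. In replicate 2 they lay 311 kb below (101313492 to 101313962, fold 2.18, −log10 q 1.74) and 388 kb above (102037527 to 102037755, fold 1.73, −log10 q 0.785), inside Ldlrad3. The stretch free of peaks was thus 620 kb long in replicate 1, 724 kb in replicate 2 and 548 kb when the peaks of both lists were pooled.

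**Figure D1:**
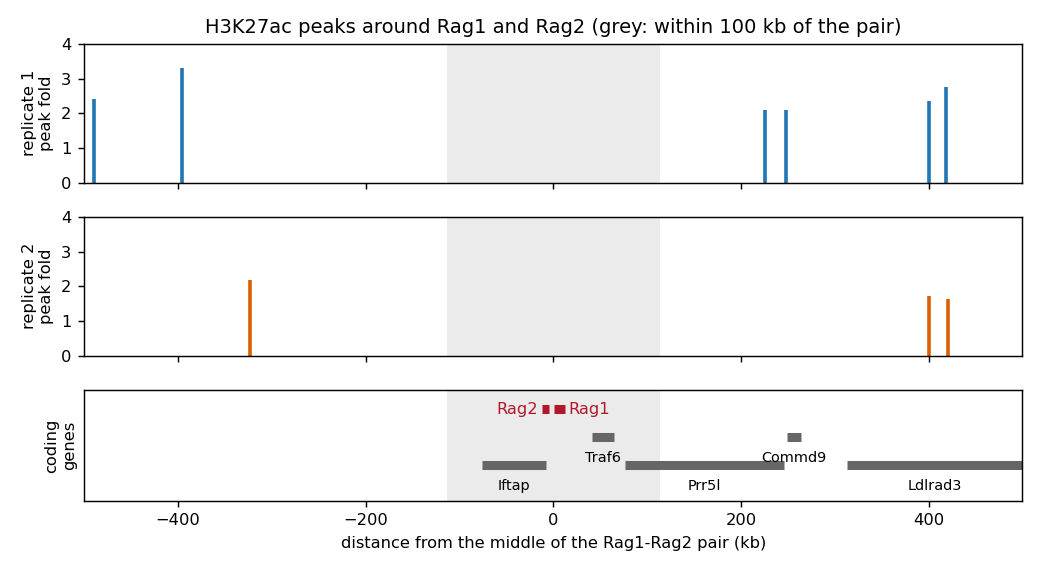
H3K27ac peaks within 500 kb of the middle of the Rag1-Rag2 pair, on chromosome 2. The vertical axes give the fold enrichment of each peak in replicate 1 (top) and replicate 2 (middle), the lines stand at peak centres and are wider than most peaks at this scale, and the bottom row shows protein-coding genes; the grey window of 225 kb holds no peak of either replicate.

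The length of the empty stretch was then ranked among all intervals between neighbouring peaks. Of 16812 autosomal intervals between neighbouring peaks of the pooled lists, 874 (5.20%) were at least as long, and the interval over the pair ranked 63 of 1225 on chromosome 2. The median interval was 63.7 kb. Between peaks shared by both replicates, the interval over the pair was 3370 kb long, ranked 8 of 319 on chromosome 2, and 114 of 4144 autosomal intervals (2.75%) were at least as long. The shared block at its lower edge ran from 98662051 to 98667501, and the peaks were not filtered for artefact regions, so this length and rank depend on that block. The interval ran from 2957 kb below the pair to 388 kb above it. Most of it lay in the stretch below Iftap, which holds no other protein-coding gene, so its rank is not particular to the recombinase genes. Read by gene, 15.4% of all protein-coding genes (3373) had no peak of either replicate within 100 kb of their body, and 8406 (38.4%) had none within 25 kb. Rag1 lay 213 kb and Rag2 230 kb from the nearest peak of either replicate, against a median of 9.88 kb over all genes and 13.3 kb over the 1782 genes of chromosome 2. Genes farther from a peak than Rag1 made up 5.96% of all genes and 8.87% of those on chromosome 2.

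The empty stretch covered the neighbours of the recombinase genes too. Iftap, also known as NWC, runs from 101560779 to 101629031 on the minus strand and overlaps Rag2, with 1 of its 2 listed starts inside the Rag2 gene, 4.32 kb from the Rag2 start. Neither start of Iftap had a peak within 1 kb in either replicate. Traf6, which encodes a ubiquitin ligase of NF-kappa-B signalling, begins 28.9 kb above Rag1 and had no peak at its ends or in its body. The Traf6 start held 19 CG dinucleotides, more than 62.0% of promoters. Of all starts with 16 to 20 CG, 22.9% had a peak within 1 kb in both replicates, so lacking one was the usual state there too. The noncoding genes Gm39887 (66.9 kb below Rag2) and Gm34041 (8.32 kb above Rag1) had no peak either.

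At the edges of the neighbourhood, Commd9, 237 kb above Rag1, was the first protein-coding gene above the pair to have a peak at its ends, and only in replicate 1 (101885099 to 101886198, fold 2.09, −log10 q 0.854). On the other side the next protein-coding gene beyond the window was Lrrc4c, 3993 kb away, so the stretch below Iftap holds no other protein-coding gene. The input was not analysed here and the lists hold no read counts, so absent peaks at Rag1 and Rag2 say only that nothing there passed the authors' caller in these libraries.

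At Dntt, acetylation peaks began at the start of the gene and ran into its body in both replicates. Dntt lies on chromosome 19 from 41029275 to 41059525 on the plus strand, a length of 30251 bp. In replicate 1 the start peak ran from 41029468 to 41032226, which is 193 to 2951 bp inside the gene. In replicate 2 it ran from 41029123 to 41031432, from position -152 to 2157 bp inside the gene. The first base of the gene therefore lay under the replicate 2 peak and not under that of replicate 1. Among all starts with a peak within 1 kb, the start base itself was covered in 59.7% of cases in replicate 1 and 60.8% in replicate 2.

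The replicates agree on most of that start region. They shared 1965 bp (41029468 to 41031432), or 71.2% of the replicate 1 peak and 85.1% of the replicate 2 peak. The left edges were 345 bp and the right edges 794 bp apart. The peaks pointed into the gene, with 100% of the replicate 1 peak and 93.4% of the replicate 2 peak downstream of the start. Over genes with a single listed start, the median share downstream was 70.0% in replicate 1 and 69.3% in replicate 2, and Dntt exceeded 69.1% and 64.3% of these start and peak pairs.

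The start peaks stood out in width more than in fold. The replicate 1 peak was 2759 bp wide, wider than 98.7% of that replicate's peaks, and the replicate 2 peak was 2310 bp wide, wider than 98.1%. Against peaks near single listed starts alone, where median widths were 766 and 680 bp, they were wider than 98.4% and 97.8%. Their folds were 2.51 and 2.21, higher than 74.0% of peaks in replicate 1 and 41.7% in replicate 2, where the medians over all peaks were 2.17 and 2.31. The −log10 q was 1.43 in replicate 1 and 0.945 in replicate 2. These values were higher than those of 75.6% of peaks in replicate 1 and 37.1% in replicate 2. A q of 0.05 corresponds to 1.30, so replicate 1 passed that threshold, replicate 2 did not, and no member had a shared call there. Most listed peaks did not pass it either: 27.1% did in replicate 1 and 41.0% in replicate 2.

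**Figure D2:**
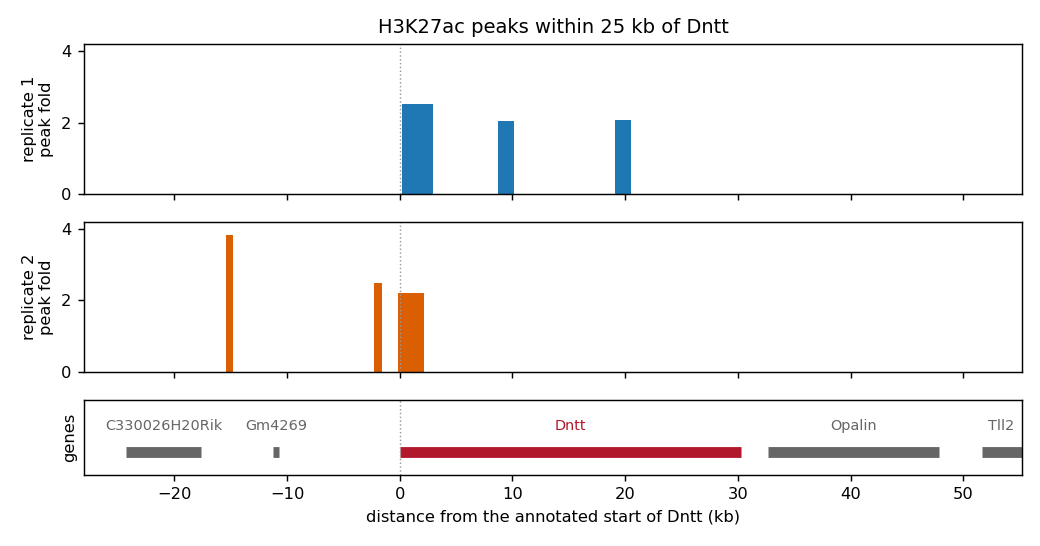
H3K27ac peaks from 25 kb before to 25 kb after Dntt, drawn to scale by distance from the annotated start, with annotated genes in the bottom row. The height of each bar is the fold enrichment of a peak in replicate 1 (top) or replicate 2 (middle); the peaks of the replicates meet in 1 place, the 1965 bp at the start of Dntt.

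Away from the start the replicates had different peaks. Replicate 1 had 2 more inside the gene, at 8.68 to 10.16 kb (41037952 to 41039438, fold 2.04, −log10 q 0.653) and at 19.05 to 20.48 kb (41048330 to 41049754, fold 2.08, −log10 q 0.727) from the start. Replicate 2 had no peak at either place. Replicate 2 instead had 2 peaks upstream. One lay 1537 bp before the gene (41026959 to 41027738, fold 2.49, −log10 q 1.05). The other lay 14779 bp before it (41013844 to 41014496) and was the tallest of the 6 peaks in the window, with a fold of 3.84, above 92.9% of that replicate's peaks, and a −log10 q of 4.18.

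That tall upstream peak of replicate 2 lay in no annotated gene. It was 2166 bp from the noncoding gene C330026H20Rik, 3528 bp from the pseudogene Gm4269 and 19.6 kb from Blnk, which encodes an adaptor of the B cell receptor. It was 1 of the 2 peaks in the Dntt window with q of at most 0.05, the other being the start peak of replicate 1. Replicate 1 had no peak upstream of Dntt within 25 kb, and its next one below lay 134 kb away, as did that of replicate 2. Above the gene the next peaks were 84.3 kb away in replicate 1, inside Tll2, and 204 kb away in replicate 2.

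Summed over the gene and 25 kb on each side, Dntt had 5671 bp covered in replicate 1 and 3743 bp in replicate 2. Of the 7449 bp covered by either, 26.4% was covered by both. All of the replicate 1 coverage lay in the gene body (18.7% of it), against 2158 bp in replicate 2 (7.13%). Shared coverage within 25 kb was present at 30.9% of protein-coding genes, with a median of 629 bp where present, and Dntt exceeded 97.9% of all genes with its 1965 bp. In the replicates taken alone, Dntt exceeded 99.4% and 98.9% of genes. These windows include the gene body, so long genes have more room for peaks, and peaks at neighbouring genes within 25 kb count too.

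**Figure D3:**
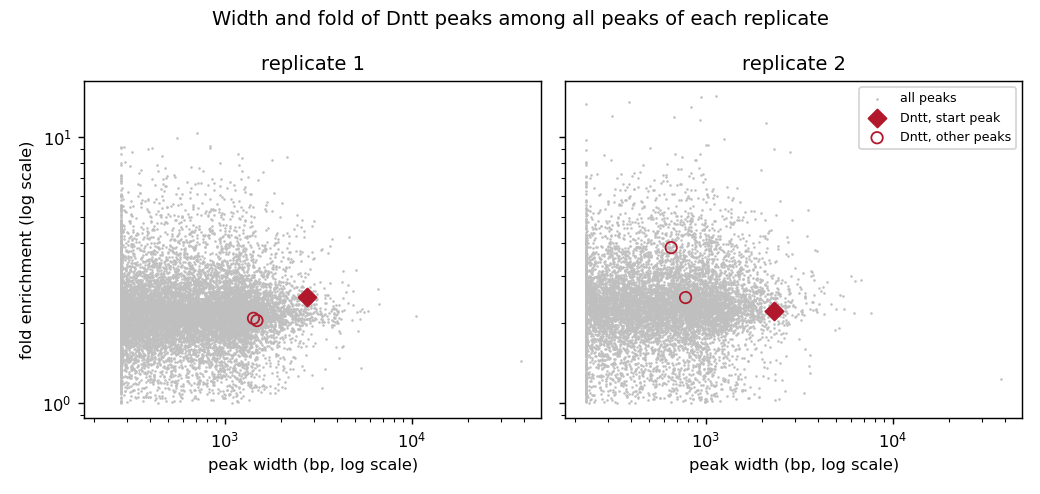
Width in bp (horizontal, log scale) and fold enrichment (vertical, log scale) of each peak in replicate 1 (left) and replicate 2 (right), with Dntt peaks in red. The filled start peaks of Dntt, 2759 and 2310 bp wide, sit toward the right of the cloud at folds of 2.51 and 2.21, and the tall open point in replicate 2 is the upstream peak with a fold of 3.84.

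The neighbours of Dntt had no such peaks. Opalin, a gene of myelinating glia that ends 2434 bp beyond Dntt, had no peak at its ends or in its body. Tll2, a metalloprotease gene 21.4 kb away, had no gene-end peak, and 2447 bp of its body were covered in replicate 1 and 0 in replicate 2. Blnk, 35.1 kb before Dntt, had neither a gene-end nor a body peak. Beyond Tll2, Tm9sf3 had a gene-end peak in each replicate (folds of 2.12 and 2.10). By covered bp within 25 kb in replicates 1 and 2, the genes nearest to Dntt were Tnrc6b (5481 and 3669 bp), Cbarp (5674 and 3927 bp) and Ube4a (5283 and 3732 bp), at distances of 0.057, 0.069 and 0.102 on the log2(bp + 1) scale over the 2 replicates. Shared coverage was 2150 bp at Tnrc6b and 2401 bp at Cbarp, near the 1965 bp of Dntt, and 471 bp at Ube4a. Like totals thus went with much less overlap at Ube4a only. The replicate 2 and shared values of Ube4a, 3732 and 471 bp, equal those of Cd3g on chromosome 9. Among these nearest genes only Tnrc6b had a gene-end peak in both replicates, so likeness in covered bp need not mean peaks at the gene itself.

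Most starts with peaks were richer in CG than that of Dntt. The share of starts with a peak within 1 kb in both replicates was 0.828% at 0 or 1 CG, 1.24% at 2 or 3 CG, 9.38% at 7 to 10 and 35.2% at 21 or more. Of 5085 starts with at most 3 CG, the highest count among the 3 genes, 53 (1.04%) were called in both replicates, against 23.2% of the 16178 starts with more. Dntt was 1 of the 53, and Rag1 and Rag2 were among the others, where absence of a call was the usual state. No test was made of this difference, since the genes were proposed with results of these data known.

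Nor did the Dntt call come with a richer start close by. Of the 53 called starts, 29 had a start with more than 3 CG within 2 kb, of the same or another gene. The other 24, of 23 genes, had none, out of 4781 such starts in all (0.502%). The nearest richer start to Dntt, that of Blnk, was 35.1 kb away. Within 1 kb of its start Dntt had 808 bp covered in replicate 1, 1153 bp in replicate 2 and 808 bp in both, ranking 5 of the 24 and above their median of 420 bp. Above Dntt stood Gm51573 (1557 bp), Lpar6 (1007 bp), Mbnl1 (884 bp) and Mndal (846 bp). Also among the 24, and picked after their values were seen, were the T cell receptor zeta chain gene Cd247 (355 bp), the Ikaros gene Ikzf1 (510 bp) and Elf1 (805 bp), which encodes an Ets factor of lymphocytes. The Cd247 and Ikzf1 starts lie inside their genes, unlike that of Dntt. The 24 also held genes such as Strn4 (255 bp) and Laptm4a (81 bp), so these picks do not describe the group.

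**Figure D4:**
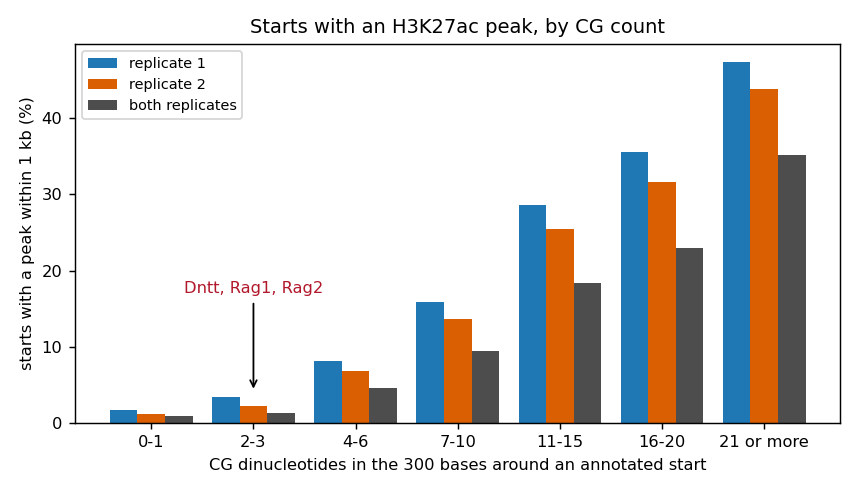
Share of annotated starts of protein-coding genes with an H3K27ac peak within 1 kb (vertical, %), by the number of CG dinucleotides in the 300 bases around the start, for each replicate and for both. Shares in both replicates run from 0.828% at 0 or 1 CG to 35.2% at 21 or more; the starts of Dntt, Rag1 and Rag2 hold 2, 3 and 3.

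Several genes that act with or after the recombinase had peaks at their ends. Of 19 partner genes, 11 had a gene-end peak in replicate 1, 13 in replicate 2 and 9 in both (47.4%, against 16.8% of all genes), and 4 had none in either. Their median shared coverage within 25 kb was 500 bp, against 0 over all genes. This count is a description and was not tested. Calls rose with CG count, to 35.2% of starts with 21 or more CG, and the list was not matched to all genes in CG count. Hmgb1 and Hmgb2, DNA-bending cofactors that help the recombinase bind its target sites, both had peaks in both replicates. The folds at Hmgb1 were 2.06 and 2.42 with 1987 bp shared, and those at Hmgb2 were 2.77 and 1.81 with 2917 bp shared. Both exceeded the shared coverage of Dntt (1965 bp), Hmgb1 by little.

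Shared bp of listed genes are those of the gene and 25 kb on each side, so they can include peaks at neighbouring genes. Among end joining genes, Prkdc, the DNA-dependent kinase, had 1080 bp shared, Dclre1c, the Artemis nuclease that opens the hairpins the recombinase leaves, had 941 bp, and Nhej1, which encodes XLF, had 521 bp. The folds at Nhej1 differed widely between replicates, at 1.65 and 7.23. Xrcc4, the partner of DNA ligase IV, had a gene-end peak in each replicate with 0 bp in common. Xrcc6, the gene of the Ku70 end-binding protein, named after its value was seen, had none at its ends and the highest shared coverage of the list, 5218 bp within 25 kb. The break response genes Atm, H2ax and Mre11a had 500, 693 and 755 bp shared. Their folds were low, from 1.11 to 1.74, on a chromosome (9) whose median folds were 1.44 and 1.25 with median −log10 q of 9.76 and 8.63. On chromosomes 2 and 19, which carry the recombinase and Dntt, median folds were 2.17 to 2.47 and median −log10 q 0.820 to 1.22, so a threshold on q acts differently on these chromosomes. With q of at most 0.05, Atm, H2ax and Mre11a were the only partners called in both replicates.

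None of the other X family polymerases, the family of terminal transferase, was called in both replicates. Polm, the relative closest to TdT, had no peak at its ends and 241 bp within 25 kb in replicate 2 alone. At Polb, the polymerase of base excision repair, only replicate 2 listed a gene-end peak (fold 2.53). Poll also had none at its ends, while its 25 kb window held 2677 bp in replicate 1, 2598 bp in replicate 2 and 1421 bp in both.

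**Figure D5:**
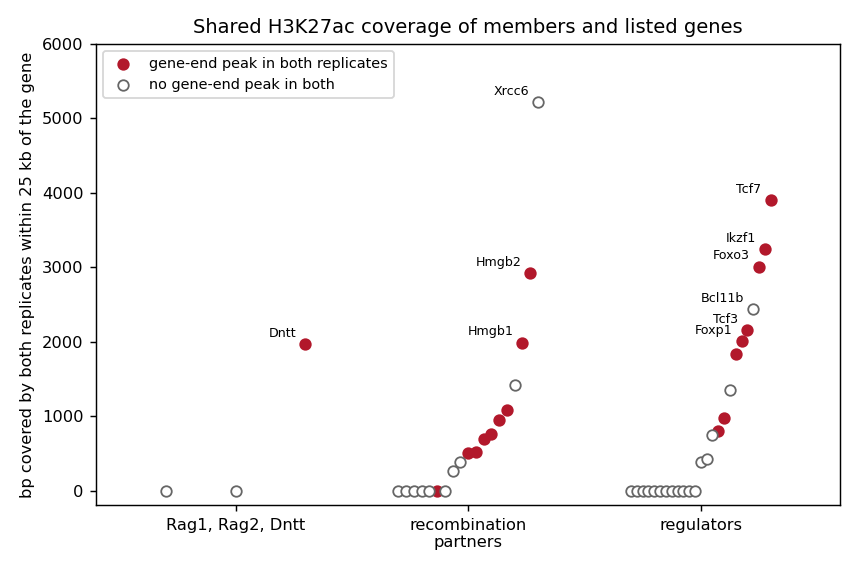
Shared coverage in bp (vertical) of each gene and the 25 kb on each side, for the 3 genes, the 19 recombination partners and the 25 regulators, ordered by value within each list; filled points have a gene-end peak in both replicates. Dntt stands at 1965 bp, close to Hmgb1 at 1987 bp, and Rag1 and Rag2 stand at 0.

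Transcription factors known to control the recombinase or terminal transferase genes, or to oppose such factors, were listed next. Of 25, 11 had a gene-end peak in replicate 1, 11 in replicate 2 and 8 in both (32.0%, against 16.8% of all genes), and their median shared coverage within 25 kb was 379 bp. This list was not matched in CG count either, and its count was not tested. With q of at most 0.05, 2 of the 8 were still called, Tcf12, on chromosome 9, and Foxp1, and at 1e-05 Tcf12 alone. Of the 3 E protein genes, Tcf3 (2159 bp shared) and Tcf12 (978 bp) were called, and Tcf4 had a gene-end peak only in replicate 2, with 0 bp shared. Their antagonists Id2 and Id3 had no peak at their ends. Ikzf1, whose product Ikaros is known to bind the Dntt promoter, had 3242 bp shared, and Foxo3, a relative of the Rag activator Foxo1, had 3010 bp. Foxo1 itself had 739 bp, in the second replicate only.

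Among the regulators called, shared coverage was highest at Tcf7, the gene of TCF-1, with 3904 bp. Myb had 1834 bp, Foxp1 2005 bp, and Satb1, a chromatin organiser known to act on the Rag locus in thymocytes, 797 bp. Gata3, without a peak at its ends, had 1349 bp of shared coverage nearby. Runx1 was called only in replicate 2 and Runx3 only in replicate 1, each with 0 bp shared. Id2 and the B lineage factors of the list, Pax5 and Ebf1, had 0 bp within 25 kb in each replicate. So had Rag1 and Rag2, and 38.4% of all protein-coding genes.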

How the data were processed

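H3K27ac peak lists of 2 replicates of wild-type double-negative thymocytes were used. Per the submitters' processing notes, the authors used Bowtie2, MACS 1.4.2 and the mm10 build. The files have the 9-column broad layout that MACS2 writes, and the peak names show calling per sample after duplicate removal. Whether the input served as control, and the cutoff, are details not given in the sources used here. For each peak the authors deposited a fold enrichment (a ratio), a −log10 p and a −log10 q, used as they stand, and a score that equals 10 times the −log10 q within 1 unit and was not used. The depth per sample is unknown. Coordinates are 1-based. Genes and promoters came from RefSeq tables of the same build (GRCm38.p6), in which all 3 genes matched. One listed symbol, H2afx, was matched as H2ax through its synonyms.

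Covered bp, overlap of at least 1 bp and gene-end calls were computed with Python 3.11.15, numpy 2.4.6 and pandas 2.3.3, drawn with matplotlib 3.10.9, and tested on simulated data against a base-by-base count with 0 of 20000 values wrong. Called means a peak of each replicate within 1 kb. The genes and lists were chosen with earlier results of these data known, so nothing was tested. Named are the 3 genes, all genes in or next to their windows, list members called in both replicates, the X family polymerases and the 3 genes nearest to Dntt in covered bp; others are named as chosen after their values were seen or as contrasts within a list. Alternatives were thresholds on q, other windows, stricter overlap and single replicates.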

Additional observations from a re-analysis of the deposited data

How the results depend on the processing

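Over 42 alternative readings of 5 results, 29 stayed within 1.5 times the main value and 13 moved further. The Rag pair had 0 bp within 100 kb in each replicate, so stricter q, a narrower window or a single replicate could give only 0, and these are no sign of stability. The window of 200 kb, which could have differed, also held 0 bp. Dntt was the single member called with each replicate alone, with windows of 2.5 and 5 kb, with overlapping peaks and with the start alone (added after seeing the data), and the count fell to 0 at q of at most 0.05 and of at most 1e-05. Its 1965 bp ranged from 3743 to 5671 bp without a replicate, became 7449 bp with either, was 0 at both thresholds on q, and was 1965 bp in windows of 10 and 50 kb. Partners called went from 9 to 3 at either threshold on q and to 15 with a peak in either replicate. They ranged from 11 to 13 without a replicate. Regulators called went from 8 to 2 at q of at most 0.05, to 1 at 1e-05 and to 14 with either, with 11 without each replicate. At q of at most 0.05, 2.64% of all genes remained called (577), and at 1e-05 0.731% (160), so fewer peaks entered. Depth and background were not measured, which limits every absent peak here.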
